A study of Homo sapiens with 8 samples.

Results

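Caveolins, galectins and CD44 are proteins of the cell surface and its surroundings, and 6 genes of this kind, CAV1, CAV2, LGALS1, LGALS3, LGALS8 and CD44, were followed on Affymetrix U95Av2 oligonucleotide arrays of 2 prostate cancer cell lines. The members were every probe set (a group of short probes summarised to 1 value) that the platform annotation gave exactly 1 gene symbol equal to one of these names. They came to 13 probe sets of 12558 tested, and 6 genes of 8226 with a probe set of their own. CD44 had 7 probe sets, CAV2 had 2, and CAV1, LGALS1, LGALS3 and LGALS8 had 1 each. The genes were chosen on their levels and Notch1 changes on these same arrays, so all values below describe them, calls included, and no p-value is given for a member.

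The groups compared were LNCaP Notch1, LNCaP GFP, PC3 Notch1 and PC3 GFP, with 2 arrays in each. LNCaP is a line from a lymph node metastasis that responds to androgens, and PC3 is a line from a bone metastasis that grows without them. Both were made to express activated Notch1, which needs no ligand to signal, or green fluorescent protein (GFP) alone as control, and the comparison asks which genes respond to acute Notch activation in each line. Each line is a single established culture, and the methods state that 2 chips were made per sample, so the spread between arrays may be technical. All values are log2 expression values, on which a difference of 1 is a change of 2-fold. The array's levels of NOTCH1 were not analysed here.

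Caveolin-1 and caveolin-2 are the membrane proteins that coat caveolae, small cholesterol-rich pits of the plasma membrane, and caveolin-2 depends on caveolin-1 to reach the surface in most cells. Galectins are lectins that bind beta-galactosides on glycoproteins and glycolipids and crosslink them outside the cell. CD44 is the main receptor for hyaluronan, a long matrix sugar, and its transcript is spliced into many forms through a run of variable exons.

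The genes lie at different places in the genome, except for the caveolins, which are neighbours. In the RefSeq annotation of GRCh38.p14, CAV2 occupies chr7:116499738-116508541 and CAV1 chr7:116525009-116561185, both on the plus strand with 16467 bases between them. LGALS1 lies at chr22:37675636-37679802, LGALS3 at chr14:55129252-55145430, LGALS8 at chr1:236518214-236552981 and CD44 at chr11:35139171-35232402. Promoter sequence (RefSeq, GRCh38.p14, 250 bases before to 50 after the start) was found for 5 of the 6 genes, and LGALS1 had no entry. CAV1 and LGALS8 each have 3 entries and CAV2 has 2, and the entry at the annotated gene start was used. Those of the 4 genes with a probe set called higher in PC3 Notch1 cells are shown. That of LGALS8 follows, which was not called in PC3 and was called lower in LNCaP Notch1 cells. In each the first 250 bases lie upstream of the annotated gene and the last 50 inside it. Capitals mark GGGCGG or its reverse complement, the SP1 box, and in LGALS8 the reverse complement of CAGGTG, the E-box bound by SNAI2.
CAV1, chr7:116524759-116525058, strand +: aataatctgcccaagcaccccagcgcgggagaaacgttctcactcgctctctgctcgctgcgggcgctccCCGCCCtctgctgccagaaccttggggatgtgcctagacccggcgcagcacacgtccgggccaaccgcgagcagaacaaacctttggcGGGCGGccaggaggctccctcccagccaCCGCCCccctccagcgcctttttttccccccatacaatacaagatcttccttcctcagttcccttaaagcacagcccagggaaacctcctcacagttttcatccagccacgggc
CAV2, chr7:116499488-116499787, strand +: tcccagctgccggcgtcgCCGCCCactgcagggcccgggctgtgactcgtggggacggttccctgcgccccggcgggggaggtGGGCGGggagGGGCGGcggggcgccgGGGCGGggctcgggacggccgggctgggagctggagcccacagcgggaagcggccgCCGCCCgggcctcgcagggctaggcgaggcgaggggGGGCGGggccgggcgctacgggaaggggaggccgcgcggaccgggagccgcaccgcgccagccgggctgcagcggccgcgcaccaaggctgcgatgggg
LGALS3, chr14:55129002-55129301, strand +: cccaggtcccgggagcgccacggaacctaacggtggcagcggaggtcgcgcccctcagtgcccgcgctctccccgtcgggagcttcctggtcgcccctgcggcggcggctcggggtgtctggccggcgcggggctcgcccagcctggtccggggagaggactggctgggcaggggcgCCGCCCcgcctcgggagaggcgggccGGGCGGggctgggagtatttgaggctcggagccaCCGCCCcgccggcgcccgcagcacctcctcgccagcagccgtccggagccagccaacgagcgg
CD44, chr11:35138921-35139220, strand +: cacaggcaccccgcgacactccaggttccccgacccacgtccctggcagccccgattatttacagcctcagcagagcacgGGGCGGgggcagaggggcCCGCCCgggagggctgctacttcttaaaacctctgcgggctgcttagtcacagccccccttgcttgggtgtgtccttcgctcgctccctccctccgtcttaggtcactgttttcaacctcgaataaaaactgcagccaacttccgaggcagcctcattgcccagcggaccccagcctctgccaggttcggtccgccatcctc
LGALS8, chr1:236517964-236518263, strand +: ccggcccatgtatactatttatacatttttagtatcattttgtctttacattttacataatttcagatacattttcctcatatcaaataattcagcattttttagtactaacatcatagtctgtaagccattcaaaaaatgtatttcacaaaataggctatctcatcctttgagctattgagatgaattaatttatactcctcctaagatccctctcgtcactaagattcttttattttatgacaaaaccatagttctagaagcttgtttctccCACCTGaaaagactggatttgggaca

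The SP1 box occurred 3 times in the CAV1 window, 6 times in CAV2, 3 times in LGALS3, 2 times in CD44 and 0 times in LGALS8, and 45% of 35116 promoters of the same length hold at least 1. The counts depend on the start chosen, since another LGALS8 entry holds 1 SP1 box and a further one holds 2 E-boxes. At the gene starts the E-box CAGGTG occurred once, in LGALS8, and 20.6% of promoters hold it. TGGGAA, the core of the site bound by the Notch partner RBPJ, had 0 matches in the 5 windows and is held by 24% of promoters. TGANTCA, the AP-1 site, had 0 matches and is held by 7.71%. Both strands were searched and matches were allowed to overlap, and a match or its absence is a property of these letters in this window.

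The 2 lines differed in these genes before Notch1 was added. On the GFP arrays LGALS1, LGALS3, CAV1, CAV2 and CD44 were lower in LNCaP than in PC3, though not at every CAV2 and CD44 probe set. LGALS8 was higher in LNCaP. Of the 13 probe sets, 1 was called higher in LNCaP GFP than in PC3 GFP, against 40.3% of all tested probe sets, and 8, from 5 genes, were called lower, against 18.5%. Called means an adjusted p under 0.05 in a linear model fitted to all probe sets. Medians of the arrays were 6.28 to 6.36 in LNCaP and 5.95 to 6.01 in PC3, and no source states that the lines were normalized together. With array medians made equal the calls over all probe sets changed to 3323 higher and 3852 lower from 5067 and 2319, and with quantile normalization of all 8 arrays to 3471 and 3599. The median difference of all probe sets, 0.22, became -0.06 and -0.04 under these scalings, and the 9 member calls were called in the same direction under both. The 3′ minus 5′ signal of GAPDH, a measure of RNA integrity, was 0.56 in LNCaP GFP and 0.02 in PC3 GFP cells. That of ACTB was 0.62 and 0.38, and the part of RNA integrity in the line differences was not tested.

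**Figure D1:**
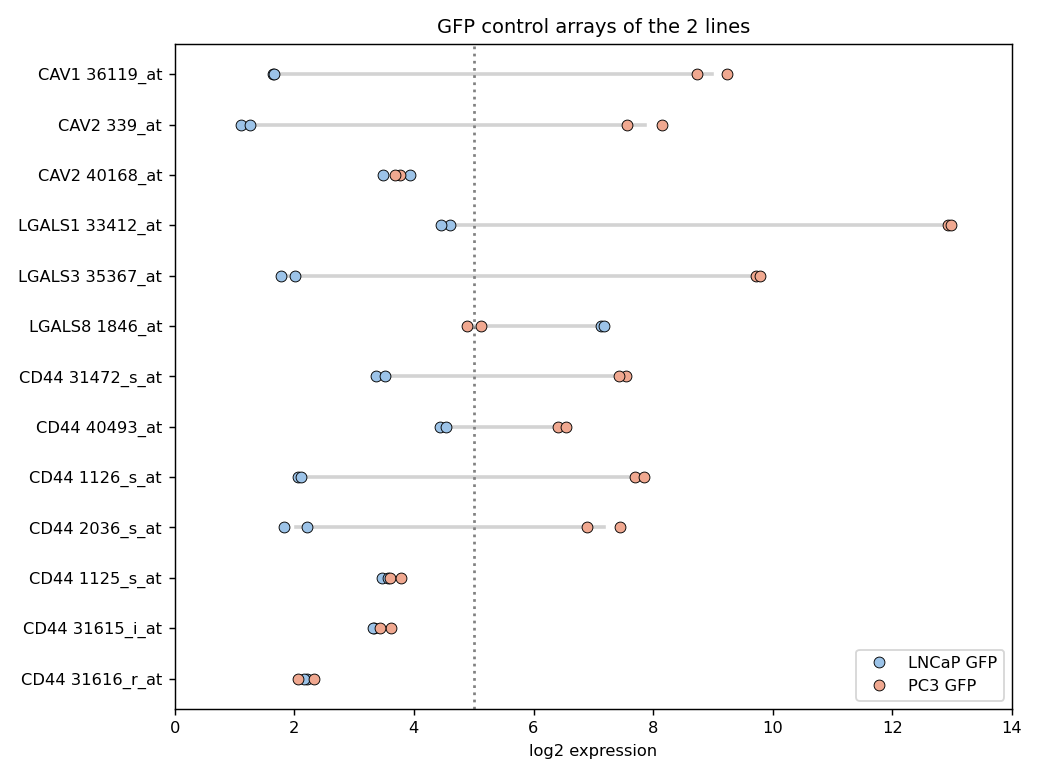
Log2 expression of the 13 member probe sets on the 2 LNCaP GFP arrays and the 2 PC3 GFP arrays, one probe set per row, 1 point per array, joined by a grey bar between group means; the dotted line marks log2 5. Points are compared within a row: LGALS1 differed by -8.43 (LNCaP minus PC3) and LGALS8 by 2.14.

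LGALS1, which encodes galectin-1, had log2 values of 4.61 and 4.45 in LNCaP GFP cells and 12.93 and 12.98 in PC3 GFP cells. The difference of -8.43 ± 0.12 (SE) was the lowest of the 12558 probe sets, at rank 1 in the main fit and in each of its alternatives. LGALS3, which encodes galectin-3, had 2.02 and 1.77 in LNCaP GFP cells against 9.72 and 9.79 in PC3 GFP cells, a difference of -7.86 ± 0.13. LGALS8, which encodes galectin-8, a galectin with a pair of sugar-binding domains, had 7.12 and 7.17 in LNCaP GFP cells against 5.13 and 4.89 in PC3 GFP cells, 4.40-fold higher in LNCaP. LGALS1, LGALS3 and LGALS8 thus did not share a direction between the lines.

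CAV1 had log2 values of 1.64 and 1.66 in LNCaP GFP cells and 8.73 and 9.23 in PC3 GFP cells, a difference of -7.32 ± 0.15. At the CAV2 probe set 339_at the values were 1.11 and 1.27 in LNCaP GFP cells and 7.56 and 8.15 in PC3 GFP cells, a difference of -6.67 ± 0.20. The other CAV2 probe set, 40168_at, lay at 3.94 and 3.48 in LNCaP GFP cells and at 3.77 and 3.68 in PC3 GFP cells, so its groups overlapped. The 2 probe sets of CAV2 therefore gave different pictures of the lines, and 40168_at stayed under log2 5 on all 8 arrays.

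Of the 7 CD44 probe sets, 4 were called lower in LNCaP GFP cells. At 31472_s_at the values were 3.36 and 3.52 in LNCaP GFP cells and 7.54 and 7.43 in PC3 GFP cells, a difference of -4.04 ± 0.12. The differences were -5.68 ± 0.13 at 1126_s_at, -5.15 ± 0.19 at 2036_s_at and -1.99 ± 0.11 at 40493_at. The remaining 3 differed by -0.21 to -0.01 and lay under log2 5 on all arrays of both lines.

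Values this low carry a limit. On the 4 LNCaP arrays 12 of the 13 probe sets lay under log2 5, where an array's background sets much of the value. With all values under log2 5 raised to 5 the line differences became -7.95 for LGALS1, -4.76 for LGALS3 and -3.98 for CAV1. They became -2.86 for CAV2 at 339_at and -2.77 to -1.48 at the 4 CD44 probe sets. All stayed called, but raising values to 5 removes the spread between arrays that lay under it. The SE became 0.03 from 0.12 for LGALS1 and 0.17 from 0.15 for CAV1. Calls kept, gained or lost under this setting are therefore not read as a measure of how firm a difference is. Leukocyte genes, which neither line should use, had group means of 2.40 to 7.75 across their 6 probe sets, so a value within that range alone does not show that a gene is expressed. The LGALS8 group means lay within it in both lines, as did CD44 at 31472_s_at, 40493_at and 2036_s_at in PC3 GFP cells.

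With activated Notch1, CAV1, CAV2, LGALS3 and CD44 were higher in PC3 cells, by 1.61-fold to 3.03-fold at the probe sets called, while LGALS1 and LGALS8 lay lower and were not called. In PC3, 6 of the 13 member probe sets, from 4 genes, were called higher with Notch1, against 4.19% of all probe sets, and 0 were called lower, against 2.01%. The median change over the 13 was 0.08, beside -0.08 over all probe sets. Both Notch1 arrays lay on one side of both GFP arrays at 8 of the 13, against 56.0% of all probe sets. These shares were fixed by the choice of the genes and nothing is read from them.

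**Figure D2:**
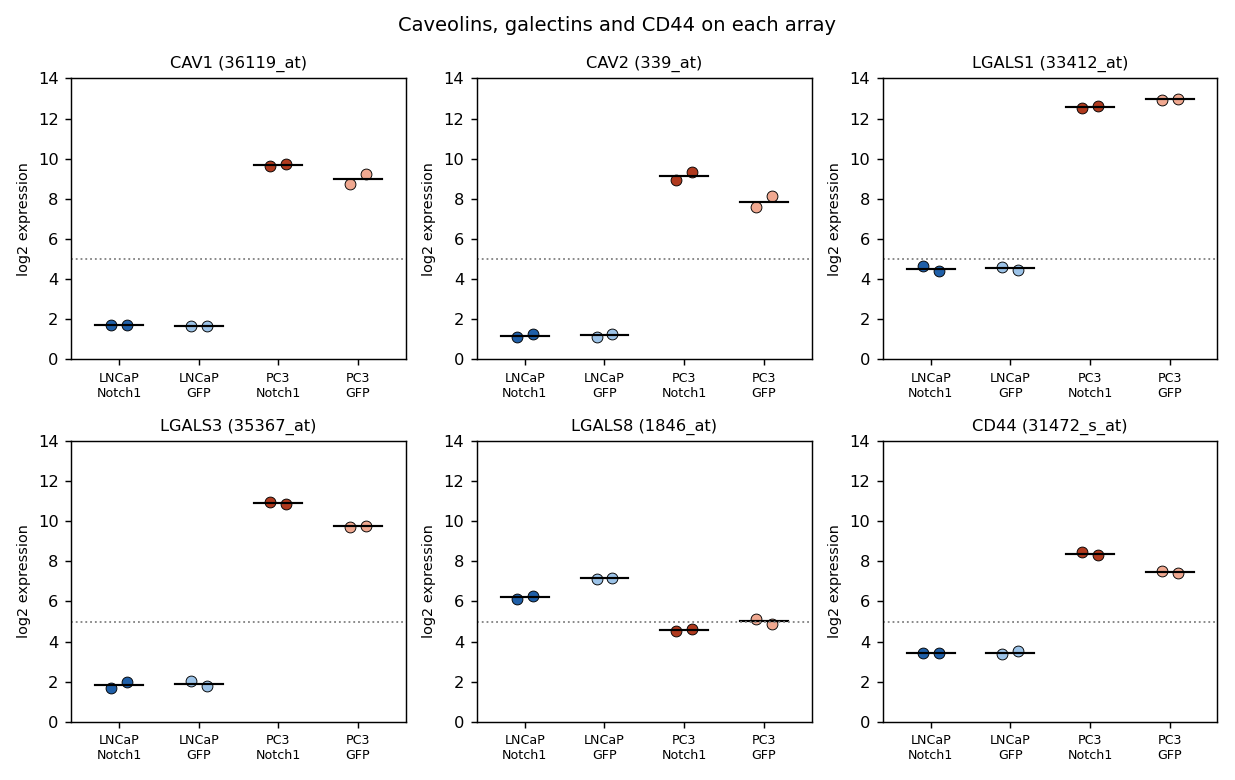
Log2 expression of 1 probe set per gene on each array, in the order LNCaP Notch1, LNCaP GFP, PC3 Notch1, PC3 GFP; points are arrays, horizontal lines group means of 2 arrays, and the dotted line log2 5. LGALS3 and CAV2 sit higher in PC3 Notch1 than in PC3 GFP cells, by 1.15 and 1.28, and LGALS8 sits lower in LNCaP Notch1 than in LNCaP GFP cells, by -0.93.

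Of the caveolin genes, CAV2 had the larger fitted change. At 339_at the log2 values were 8.93 and 9.35 in PC3 Notch1 cells and 7.56 and 8.15 in PC3 GFP cells, a difference of 1.28 ± 0.20 (95% interval 0.84 to 1.72, 2.43-fold). Both Notch1 arrays lay above both GFP arrays, and the GFP arrays were 0.59 apart. CAV1 had 9.61 and 9.72 in PC3 Notch1 cells and 8.73 and 9.23 in PC3 GFP cells, a difference of 0.68 ± 0.15 (0.34 to 1.03, 1.61-fold). Its groups did not overlap, but its call held in only 7 of 15 alternatives, being lost with quantile normalization (0.57), with values under log2 5 raised to 5, with the 4 PC3 arrays alone, and without PC3 GFP replicate 1 (0.44), either PC3 Notch1 array (0.74 and 0.63) or either LNCaP Notch1 array. The CAV2 call was lost with the raised values and without PC3 Notch1 replicate 2 (1.07). At 40168_at CAV2 had 3.56 and 3.69 in PC3 Notch1 cells and 3.77 and 3.68 in PC3 GFP cells, a difference of -0.10 ± 0.16 with overlapping groups.

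Among the galectins LGALS3 was the one called in PC3. Its log2 values were 10.94 and 10.87 in PC3 Notch1 cells and 9.72 and 9.79 in PC3 GFP cells, a difference of 1.15 ± 0.13 (0.85 to 1.45, 2.22-fold). The arrays of each group were within 0.07 of each other, and the call held in all 15 alternatives. LGALS1 had 12.54 and 12.61 in PC3 Notch1 cells and 12.93 and 12.98 in PC3 GFP cells, a difference of -0.38 ± 0.12 (-0.65 to -0.10). Its groups did not overlap, but it was called only when values under log2 5 were raised to 5. LGALS8 had 4.55 and 4.60 in PC3 Notch1 cells and 5.13 and 4.89 in PC3 GFP cells, a difference of -0.44 ± 0.12 (-0.71 to -0.16). It was called only with the replicate number as a block and without PC3 GFP replicate 2 (-0.55), and with values under log2 5 raised to 5 its difference shrank to -0.06.

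CD44 gave a split picture across its probe sets. At 2036_s_at the log2 values were 8.70 and 8.85 in PC3 Notch1 cells and 6.90 and 7.45 in PC3 GFP cells, a difference of 1.60 ± 0.19 (1.18 to 2.02, 3.03-fold). At 1126_s_at they were 8.93 and 8.61 in PC3 Notch1 cells and 7.69 and 7.84 in PC3 GFP cells, a difference of 1.00 ± 0.13 (0.70 to 1.29). At 31472_s_at they were 8.45 and 8.33 in PC3 Notch1 cells and 7.54 and 7.43 in PC3 GFP cells, a difference of 0.91 ± 0.12 (0.65 to 1.17). These 3 probe sets were higher on both Notch1 arrays than on either GFP array, and their calls held in all 15 alternatives.

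The other 4 CD44 probe sets were not called in PC3. At 40493_at the log2 values were 6.45 and 6.43 in PC3 Notch1 cells and 6.42 and 6.54 in PC3 GFP cells, a difference of -0.04 ± 0.11 (-0.29 to 0.21). The differences were -0.03 ± 0.13 at 1125_s_at, 0.06 ± 0.14 at 31615_i_at and 0.08 ± 0.14 at 31616_r_at, all 3 of which stayed under log2 5 on every array. The platform annotation lists 1 GenBank record for 40493_at, 1125_s_at and 1126_s_at, so 1 of 3 probe sets made from that record was called. A suffix of _s_at marks probes that can match several related transcripts, and the probe sequences, and so the exons they read, were not used here. All 3 CD44 probe sets called in PC3 carry this suffix, as does 1125_s_at, which was not called. The probe set 40493_at does not carry it.

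**Figure D3:**
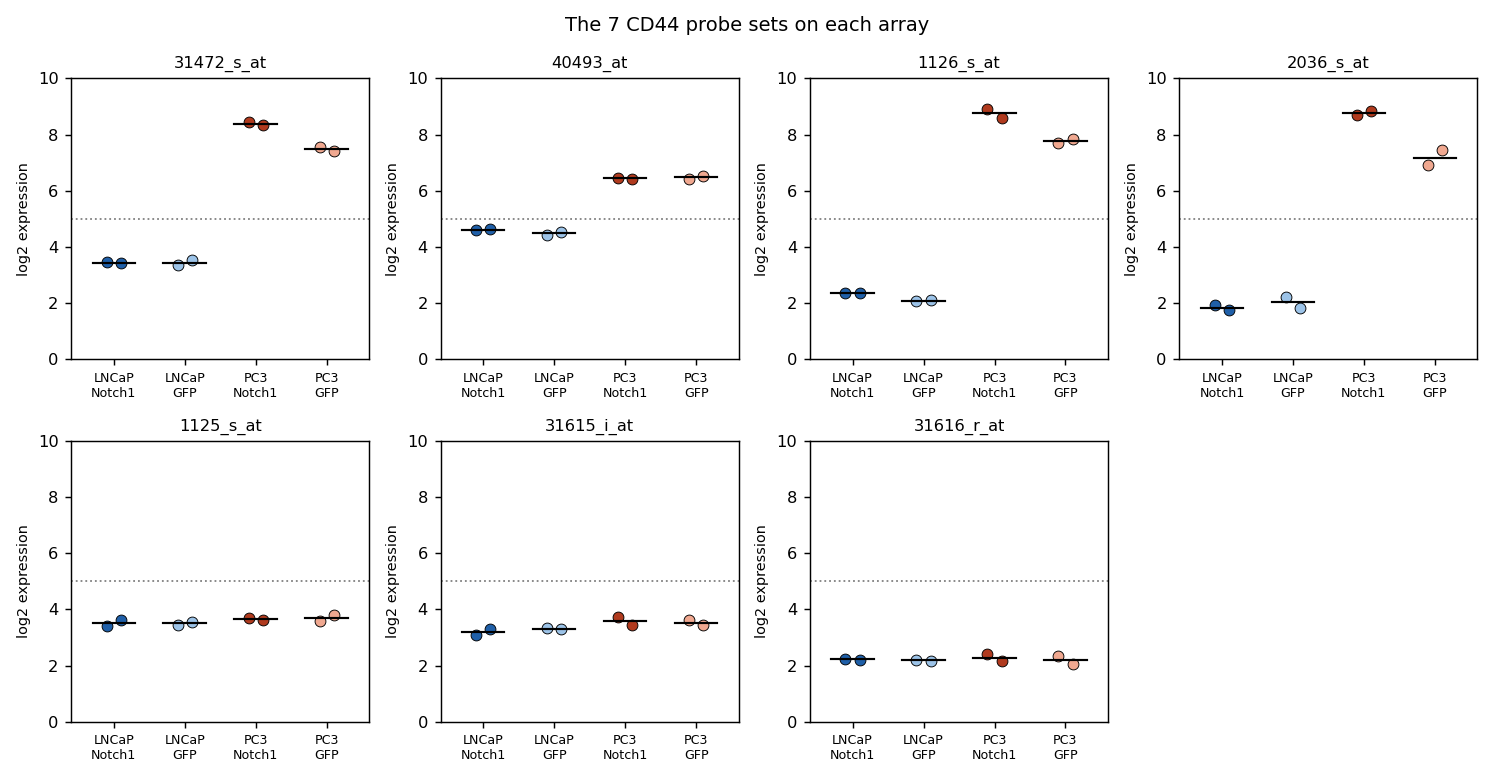
Log2 expression of each of the 7 CD44 probe sets on each array, in the order LNCaP Notch1, LNCaP GFP, PC3 Notch1, PC3 GFP; points are arrays, horizontal lines group means of 2 arrays, and the dotted line log2 5. In PC3, 31472_s_at, 1126_s_at and 2036_s_at sit higher with Notch1, and the other 4 differ by -0.04 to 0.08.

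In LNCaP, LGALS8 was the only gene of the 6 called with Notch1. Its log2 values were 6.15 and 6.29 in LNCaP Notch1 cells and 7.12 and 7.17 in LNCaP GFP cells, a difference of -0.93 ± 0.12 (-1.20 to -0.65), so the level in GFP cells was 1.90-fold that in Notch1 cells. Its groups were clearly apart and the call held in all 15 alternatives, with differences of -1.01 to -0.86. Thus 1 of 13 member probe sets was called lower in LNCaP, against 9.32% of all probe sets, and 0 were called higher, against 8.01%. The groups did not overlap at 4 of the 13, against 57.0% of all probe sets, and the median change was -0.01 beside 0.04 over all probe sets. Alongside it, 3 of 4 measured luminal prostate markers, KLK2, TMPRSS2 and KLK3, were called lower with Notch1 in LNCaP (-1.51, -0.82 and -0.75), and the 3′ minus 5′ signal of GAPDH, a measure of RNA integrity, was lower in LNCaP Notch1 (0.38 ± 0.03) than in LNCaP GFP cells (0.56 ± 0.01, SD, n = 2 each). The part of either in the LGALS8 value was not tested.

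The other genes lay under log2 5 on every LNCaP array, with or without Notch1, and none of their probe sets was called. CAV1 had 1.68 and 1.71 in LNCaP Notch1 cells against 1.64 and 1.66 in LNCaP GFP cells, and CAV2 at 339_at had 1.11 and 1.23 against 1.11 and 1.27. LGALS1 had 4.62 and 4.41 in LNCaP Notch1 cells against 4.61 and 4.45 in LNCaP GFP cells, and LGALS3 had 1.70 and 1.97 against 2.02 and 1.77. CD44 changed by -0.20 to 0.27 across its 7 probe sets, with the highest value at 1126_s_at, where the arrays read 2.37 and 2.34 in LNCaP Notch1 cells and 2.06 and 2.11 in LNCaP GFP cells. At levels this low a change of the transcript may not be visible on the array.

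**Figure D4:**
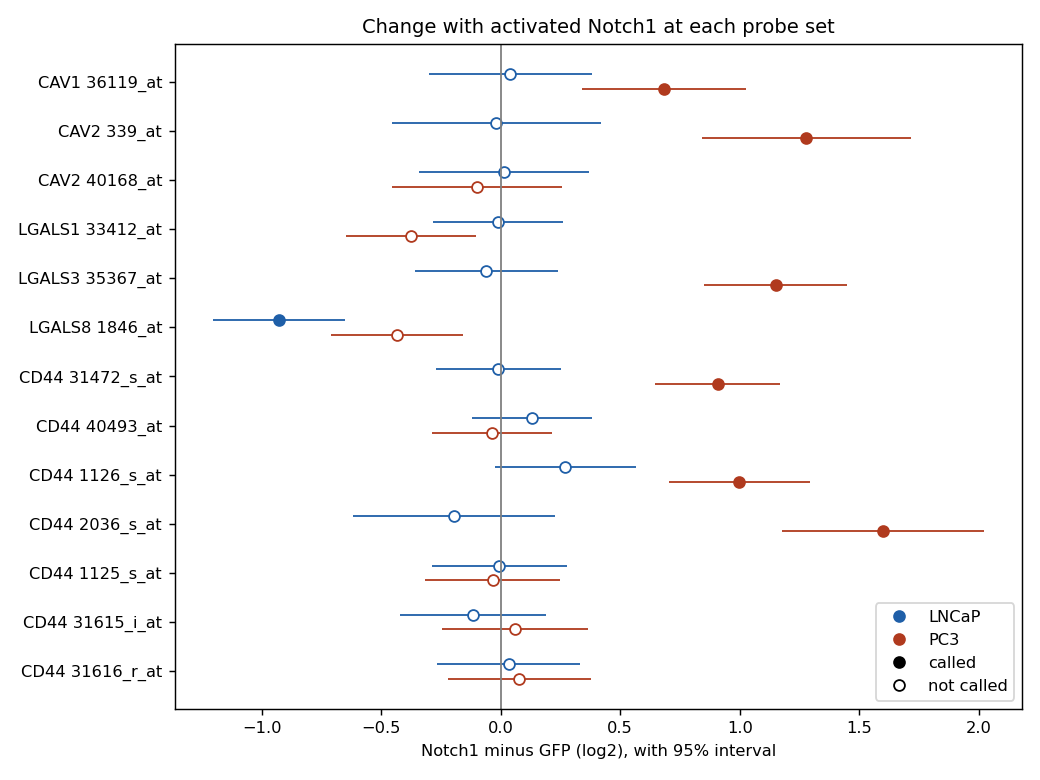
Change with activated Notch1 (log2, Notch1 minus GFP) at each of the 13 probe sets in LNCaP and in PC3, with the 95% interval of the model fitted to all 8 arrays; filled points are called and open points are not. In PC3 6 points are filled, all above 0, and in LNCaP 1 is filled, LGALS8 at -0.93.

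The change in LNCaP minus that in PC3 was called at 5 of the 13 probe sets, from 3 genes, all lower, against 7.67% of all probe sets, and at 0 in the other direction, against 6.49%. The difference was -1.80 ± 0.27, -0.92 ± 0.17 and -0.73 ± 0.19 at the CD44 probe sets 2036_s_at, 31472_s_at and 1126_s_at, -1.30 ± 0.28 at CAV2 339_at and -1.21 ± 0.19 at LGALS3. For CAV1 it was -0.64 ± 0.22, not called, and it became called with the replicate number as a block and without PC3 GFP replicate 2 (-0.89). For LGALS8 it was -0.49 ± 0.18, not called, and it became called with array medians equal (-0.59), with quantile normalization (-0.64) and with values under log2 5 raised to 5 (-0.87). The calls at LGALS3, 31472_s_at and 2036_s_at held in all 14 alternatives. That at 1126_s_at was lost without any one array other than PC3 GFP replicate 2 and PC3 Notch1 replicate 2, and that at CAV2 without PC3 Notch1 replicate 2 or LNCaP Notch1 replicate 1 and with values under log2 5 raised to 5 (-1.28). Over all probe sets the calls, 815 higher and 963 lower, became 549 and 1255 with array medians equal and 685 and 1000 with quantile normalization.

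Levels of each gene across the 4 groups can be put in order from these values. For CAV1, CAV2 at 339_at and LGALS3 the order was PC3 Notch1, PC3 GFP and then both LNCaP groups, which were not called apart. The same order held for CD44 at 31472_s_at, 1126_s_at and 2036_s_at. For LGALS1 both PC3 groups were highest, with Notch1 below GFP by a difference that was not called, and both LNCaP groups were lowest. For LGALS8 the order was LNCaP GFP, LNCaP Notch1 and then the PC3 groups, which were not called apart.

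Genes were also ranked by how closely their log2 values followed each member over the 8 arrays. Both lines are in each correlation, so the gap between them enters it, and its part in the ranking was not tested. KDELR3, NID1 and FGFBP1 were most like CAV1, with Pearson r of 0.9994 to 0.9995. IER3, CCN2 and RND3 were most like CAV2 (0.9988 to 0.9997), UCHL1, PROCR and ANXA2 most like LGALS1 (0.9994 to 0.9997), and PLAU, COL4A1 and NID1 most like LGALS3 (0.9989 to 0.9991). ST3GAL6, CTSC and S100A2 were most like CD44 at 31472_s_at (0.9987 to 0.9996). TGM3, LOC103344931 and ELOVL6 were most like LGALS8 (0.9938 to 0.9944). Each r is over n = 8 arrays and 8225 genes, and from 20 genes for LGALS8 up to 192 for CAV1 exceeded 0.99, so the top 3 are barely set apart from the next.

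Around the members, 5 lists of related genes were read from the same fit. The lists were written with earlier results of these data known, and genes were named from them by their called changes. The adjusted p-values given for them therefore describe these genes. Over all probe sets 4.19% were called higher and 2.01% lower with Notch1 in PC3, and 8.01% and 9.32% in LNCaP. Of 12 measured genes of caveolae and lipid rafts, 1 rose and 0 fell with Notch1 in PC3, and 1 rose and 0 fell in LNCaP. The median change was -0.05 in PC3 and 0.16 in LNCaP, beside -0.08 and 0.04 over all probe sets. STOM, which encodes the raft protein stomatin, rose in PC3, with 9.51 and 9.48 in PC3 Notch1 cells and 8.05 and 8.12 in PC3 GFP cells, 2.66-fold (limma adjusted p = 9.86e-05). CAVIN1, which encodes the cavin that coats caveolae together with caveolin, had 8.24 and 8.30 in PC3 Notch1 cells and 8.33 and 8.22 in PC3 GFP cells, a difference of -0.01 ± 0.11. In LNCaP CAVIN1 rose by 0.42 ± 0.11 (limma adjusted p = 0.0269), a call lost without any single LNCaP array.

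Of 4 other galectin genes measured, LGALS2, LGALS4, LGALS9 and CLC, 0 were called by limma in either line, and 0 had an unadjusted p under 0.05. The median change was -0.15 in PC3 and 0.16 in LNCaP. Of 15 genes for galectin ligands and the enzymes that build their glycans, 2 rose and 0 fell in PC3, and 0 rose and 3 fell in LNCaP, with median changes of 0.01 and -0.07. GCNT1, which makes the core 2 branch of O-glycans, fell in LNCaP, with 6.66 and 6.27 in LNCaP Notch1 cells and 7.45 and 7.40 in LNCaP GFP cells, a difference of -0.96 ± 0.14 (limma adjusted p = 0.000997). LAMP2, a lysosomal membrane glycoprotein, rose by 0.66 ± 0.16 in PC3 (limma adjusted p = 0.0411) and fell in LNCaP, by -0.69 ± 0.16 (0.015). The integrin gene ITGA3 rose by 0.62 ± 0.13 in PC3 (limma adjusted p = 0.0233), and the transferrin receptor gene TFRC fell in LNCaP, by -0.43 ± 0.13 (0.047). The calls of LAMP2, ITGA3 and TFRC were each lost in 4 or more alternatives, and that of GCNT1 in LNCaP held in all 14.

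Genes of hyaluronan, of CD44 partners and of the proteases that cut CD44 held the largest changes among the lists. Of 19 measured, 3 rose and 1 fell in PC3, and 4 rose and 3 fell in LNCaP, with median changes of 0.06 and 0.13. HAS2, an enzyme that makes hyaluronan, had 6.46 and 6.26 in PC3 Notch1 cells and 4.48 and 4.30 in PC3 GFP cells, a rise of 1.97 ± 0.14 or 3.91-fold (limma adjusted p = 1.74e-05). With values under log2 5 raised to 5 the rise was 1.36 and stayed called. HMMR, another hyaluronan receptor, had 8.50 and 8.59 in LNCaP Notch1 cells and 6.59 and 6.68 in LNCaP GFP cells, a rise of 1.91 ± 0.17 (3.31e-05 by limma, adjusted), and in PC3 it differed by -0.05 ± 0.17.

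ANK3, which encodes ankyrin-G, a protein that links membrane proteins to the cytoskeleton, fell in both lines. It had 7.74 and 7.58 in LNCaP Notch1 cells against 9.30 and 9.45 in LNCaP GFP cells, and 6.71 and 6.86 in PC3 Notch1 cells against 7.97 and 8.25 in PC3 GFP cells. The falls were -1.71 ± 0.14 in LNCaP and -1.32 ± 0.14 in PC3 (limma adjusted p = 1.38e-05 and 0.000223). MMP7, a protease known to bind CD44, had 5.35 on both PC3 Notch1 arrays and 3.82 and 3.89 on the PC3 GFP arrays, 2.82-fold higher, with an SE of 0.12 on the log2 scale (limma adjusted p = 2.64e-05), and the log2 rise became 0.35 when values under log2 5 were raised to 5. The calls of HAS2, HMMR, ANK3 and MMP7 held in all alternatives run for them.

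**Figure D5:**
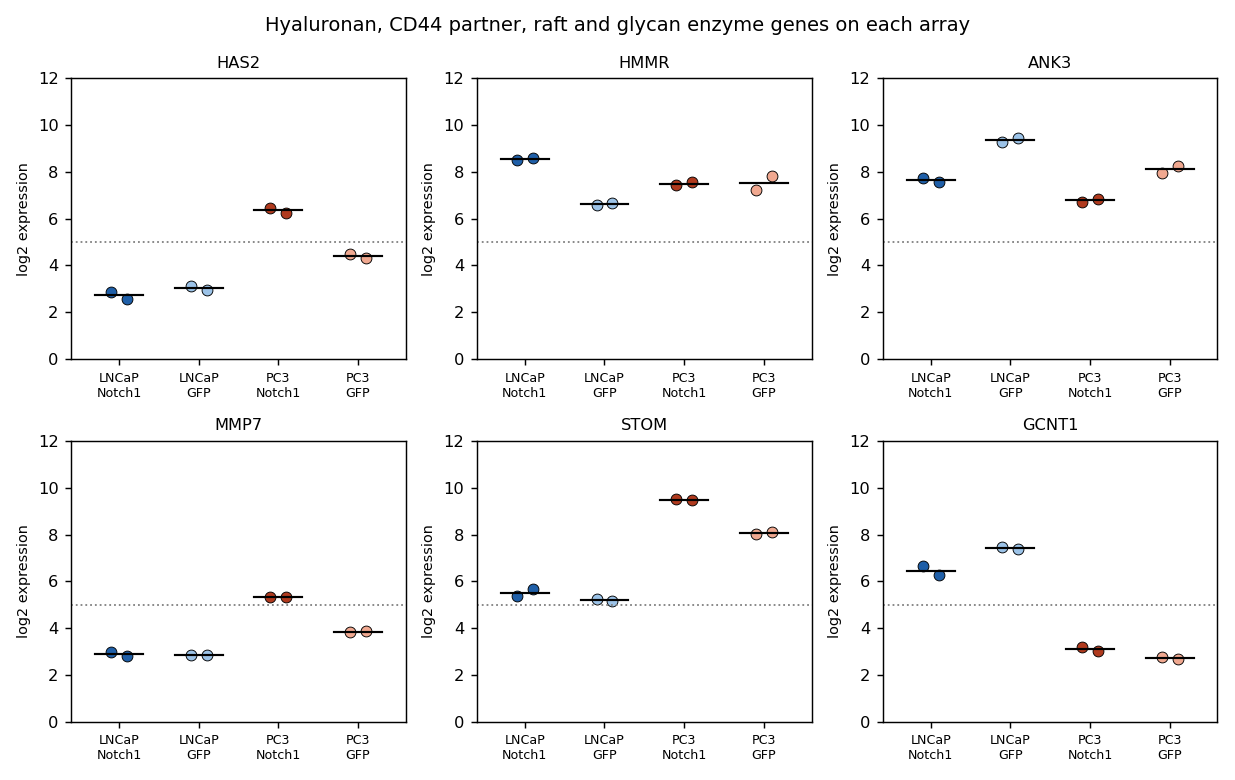
Log2 expression of HAS2, HMMR, ANK3, MMP7, STOM and GCNT1 on each array, in the order LNCaP Notch1, LNCaP GFP, PC3 Notch1, PC3 GFP; points are arrays, horizontal lines group means of 2 arrays, and the dotted line log2 5. HAS2, MMP7 and STOM sit higher with Notch1 in PC3, HMMR higher in LNCaP, GCNT1 lower in LNCaP and ANK3 lower in both lines.

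Of 13 splicing and RNA-binding genes known to act on the CD44 variable exons, 1 rose and 1 fell in each line, with median changes of 0.14 in PC3 and -0.01 in LNCaP. U2AF2, a subunit of the factor that recognises the 3′ splice site, fell in PC3, with 7.06 and 7.26 in PC3 Notch1 cells and 8.30 and 8.11 in PC3 GFP cells, a difference of -1.05 ± 0.14 (limma adjusted p = 0.00127) called in all 14 alternatives. KHDRBS1, which encodes SAM68, rose by 0.48 ± 0.13 in PC3 (0.0494 by limma, adjusted). In LNCaP SRSF3 rose by 0.43 ± 0.12 and SND1 fell, by -0.35 ± 0.11 (limma adjusted p = 0.0362 and 0.049). The calls of KHDRBS1, SRSF3 and SND1 were each lost in 7 or more alternatives.

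The 2 arrays of each group had r of 0.995 to 0.998 across all probe sets. All 4 measured luminal markers were called higher in LNCaP GFP than in PC3 GFP cells, and 3 of 5 PC3 markers were called lower, with AXL and KRT7 not called. Of the PC3 markers, S100A2 and PLAU were called higher with Notch1 in PC3 (1.18 and 0.91), beside the member genes called there, and their part in those results was not tested. Of fibroblast, endothelial and leukocyte markers 0 of 18 were called by limma with Notch1 in PC3 (3 had an unadjusted p under 0.05) and 1, TEK, in LNCaP. Over all probe sets 4.19% were called higher and 2.01% lower in PC3, and 8.01% and 9.32% in LNCaP. Among the endothelial markers 5 of 6, including PECAM1, VWF and CDH5, lay under log2 5 in all groups. The summed log2 value of the 6 leukocyte markers was 32.9 to 33.4 in PC3 Notch1 cells and 34.3 to 34.7 in PC3 GFP cells, and 36.2 to 36.4 in LNCaP Notch1 cells and 35.7 to 36.0 in LNCaP GFP cells. The 3′ minus 5′ signal of ACTB was 0.45 in LNCaP Notch1 and 0.62 in LNCaP GFP cells, and 0.33 in PC3 Notch1 and 0.38 in PC3 GFP cells. That of GAPDH was 0.38 ± 0.03 in LNCaP Notch1 and 0.56 ± 0.01 in LNCaP GFP cells (SD, n = 2 each), and -0.06 in PC3 Notch1 and 0.02 in PC3 GFP cells.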

How the data were processed

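Total RNA of LNCaP and PC3 cells was hybridised to Affymetrix U95Av2 arrays, 8 in all. Per the methods, the authors ran RMA in R on the scanner files (background correction, between-array normalization and probe summary) and then limma, with versions not given in the sources used here. Deposited by the authors was 1 log2 value per array for each probe set, unpooled, and these log2 values were used as they stood. Of 12625 probe sets, 67 controls were left out. Genes were named where the platform annotation gave 1 symbol (10943 probe sets, against 545 with several and 1070 with none).

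One linear model with 4 group means was fitted to all 8 arrays with limma 3.58.1 in R 4.3.3 (4 residual and 6.37 prior degrees of freedom). A probe set was called at a two-sided Benjamini-Hochberg adjusted p under 0.05 over 12558 probe sets. The fit was tested on simulated data. Standard errors and intervals come from this model, and precision is limited by there being 2 arrays a group. The members, lists and tests were chosen with earlier results of these data known.

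The rule for named genes took every member probe set, from each list up to 4 called genes ranked by their largest change, and for each member the 3 genes of highest correlation. A listed gene was read from its probe set of highest mean. Replicate numbers recur in all groups, and across the 6 group pairs the replicate 1 deviations had correlations between 0.124 and 0.545. Any pairing of arrays by number rests on these data alone, as the meaning of the numbering is not given. The main fit held the 4 group means only, so its standard errors, intervals and calls did not use this pairing. It entered only through the replicate block, which was run as an alternative. Alternatives were equal array medians, quantile normalization, the replicate block, a filter at the 25th percentile of level, values under log2 5 raised to 5, an intensity trend, the 4 arrays of a comparison alone, and each array left out in turn.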

Additional observations from a re-analysis of the deposited data

Results flagged for a closer look

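The gene lists were written with earlier results of these data known, and genes were named from them by their called changes. Their differences and p-values are therefore descriptions. For the listed genes below the difference between the lines was called, given as the change in LNCaP minus that in PC3 on the log2 scale. It was -2.28 for HAS2, -1.46 for MMP7, -1.35 for GCNT1, -1.35 for LAMP2 and -1.10 for STOM, and in the other direction 1.96 for HMMR and 0.70 for U2AF2. HAS2 and MMP7 lay under log2 5 on every LNCaP array, with group means of 2.73 to 3.05 and 2.86 to 2.90. GCNT1 lay under log2 5 on every PC3 array, with group means of 2.73 and 3.12. In those lines a change of these transcripts may not be visible on the array. With values under log2 5 raised to 5 the calls of GCNT1 (-0.96, limma adjusted p = 0.0557), LAMP2 (-1.35, 0.0597) and U2AF2 (0.70, 0.11) were lost, and HAS2 and MMP7 shrank to -1.36 and -0.35. The U2AF2 call was lost in 8 of 14 alternatives, and the LAMP2 change had opposite directions in the lines. The members were chosen on these same changes, so their differences are likewise a description and not a test. They were -1.30 for CAV2 at 339_at, -1.21 for LGALS3, and -0.92, -0.73 and -1.80 for CD44 at 31472_s_at, 1126_s_at and 2036_s_at. The 1126_s_at call was lost without any one array other than PC3 GFP replicate 2 and PC3 Notch1 replicate 2. The CAV2 call was lost without PC3 Notch1 replicate 2 or LNCaP Notch1 replicate 1, and with values under log2 5 raised to 5 (-1.28).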

How the results depend on the processing

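No member call turned direction. Of 13 member probe sets, 6 were called in PC3, and 4 to 7 were with any 1 array left out, the lowest without PC3 Notch1 replicate 2. With the replicate block 7 were called in PC3, 6 higher and 1 lower (LGALS8), and 6 in the difference between lines against 5 without it, and the replicate block changed no other member call. In that difference 3 to 6 were called with 1 array left out, 3 without LNCaP Notch1 replicate 1 and 6 without PC3 GFP replicate 2. The LNCaP call of LGALS8 held throughout. Between the GFP groups 11 were called with array medians equal and 13 with quantile normalization, against 9, the added ones all lower in LNCaP, at or under log2 5 and at differences of -0.60 to -0.40. Over all probe sets, calls in PC3 were 526 higher and 253 lower, with 919 and 588 under the replicate block, and 187 and 64 without PC3 Notch1 replicate 2 but 1003 and 691 without PC3 GFP replicate 2. Of the listed genes, the calls of TFRC, SRSF3 and SND1 in LNCaP were lost without any 1 LNCaP array or either PC3 Notch1 array, and that of LAMP2 there without LNCaP GFP replicate 2 or either LNCaP Notch1 array. In PC3 the call of LAMP2 was lost without PC3 GFP replicate 1 or either Notch1 array of either line, that of ITGA3 without PC3 GFP replicate 2 or either PC3 Notch1 array, and that of KHDRBS1 without any 1 array but PC3 GFP replicate 2. The causes of these shifts were not tested. Levels under log2 5 limit what could be seen in LNCaP.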

Other observations

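Some listed genes differed between the GFP groups about as widely as the members, and those here were chosen after their values were seen. TNFAIP6, a hyaluronan-binding protein, had log2 values of 3.72 and 3.74 in LNCaP GFP cells and 9.01 and 8.94 in PC3 GFP cells (limma adjusted p = 4.34e-10). ST6GAL1, which caps galactose with sialic acid, had 4.50 and 4.27 in LNCaP GFP cells and 7.56 and 7.51 in PC3 GFP cells (limma adjusted p = 1.03e-08). GCNT1 went the other way, with 7.45 and 7.40 in LNCaP GFP cells and 2.78 and 2.68 in PC3 GFP cells (limma adjusted p = 6.61e-10).

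Some genes that bear on CD44 changed with Notch1 in LNCaP, where CD44 itself lay under log2 5 and was not called. These genes were also chosen after their values were seen. ADAM10, a protease that cuts CD44, rose by 1.25 in LNCaP and by 0.69 in PC3 (limma adjusted p = 5.22e-05 and 0.00805). Of the 3 ezrin, radixin and moesin genes, whose proteins link CD44 to actin, MSN rose by 0.63 in LNCaP and EZR fell, by -0.89 (limma adjusted p = 0.00435 and 0.00104), while RDX differed by -0.22 (0.295). In all, 12 of the 19 measured genes of that list were not called in LNCaP.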
